A study of Mus musculus with 4 samples.

Results

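The proteasome is the cylinder-shaped protease that degrades proteins tagged with ubiquitin. Its core particle stacks rings of alpha subunits, encoded by Psma genes, around rings of beta subunits, encoded by Psmb genes, and a few of the beta subunits carry the proteolytic sites. A regulatory particle caps the core, with Psmc genes encoding the ATPases that unfold substrates and Psmd genes encoding scaffold, ubiquitin receptor and deubiquitinase subunits or, in a few cases, chaperones of its assembly. Germ cells of the testis also make a form of the core, known in mice as the spermatoproteasome, in which the testis subunit Psma8 takes the place of Psma7. Other cells can exchange the catalytic subunits Psmb6, Psmb7 and Psmb5 for the interferon-inducible Psmb9, Psmb10 and Psmb8, which gives the immunoproteasome.

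The genes described here are all rows of the deposited count table whose symbol is Psma, Psmb, Psmc or Psmd followed by a number. The rule found 40 rows among 22274, of which 35 matched in mouse letter case and 5 (Psma5, Psmc1, Psmc5, Psmc6 and Psmd14) carry their symbol in capitals. A second row labelled Psmd1 is the predicted gene Gm21972, which overlaps Psmd1 in exons on the same strand, and it is kept apart. The remaining 39 genes comprise 8 alpha and 11 beta subunits of the core, 6 regulatory ATPases and 14 regulatory non-ATPase genes. They were read in testes of adult Fam170a knockout mice (KO, 2 libraries) and of wild-type mice (WT, 2 libraries), from poly(A) RNA turned into full-length cDNA. In the labels, KO replicate 2 carries the name Fam171a as its genotype, but Fam170a had 1 count in each KO library, against 2240 and 3510 counts in the WT libraries. No label tells the strain, which part of the gene was removed or how many animals a library holds. A p-value therefore speaks of the spread among these libraries, which may be technical. In bulk tissue, fewer cells of a type and less RNA per cell cannot be told apart.

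Total counts were 34740160 and 41684437 in KO replicates 1 and 2, and 26029374 and 35494303 in WT replicates 1 and 2. Levels are CPM, the usual depth-scaled count with library sizes adjusted by TMM factors, and each fold change is a log2 ratio of KO to WT, given with its standard error (SE). Germ cell genes that define the tissue were abundant, with summed Ddx4 and Dazl at 886 and 910.2 CPM in the KO libraries and 816 and 977 CPM in the WT libraries. Ddx4 made up most of each sum, at 799.7 and 845 CPM in KO and 722 and 832 CPM in WT. Dazl had both KO libraries below both WT libraries, at 86.3 and 65.4 CPM in KO, against 93.8 and 144 CPM in WT. Its log2 fold change was -0.65 (edgeR adjusted p = 0.167). The WT libraries differed from each other in late germ cell transcripts, since 6 elongating spermatid markers summed to 4396 and 7068 CPM in the KO libraries and to 9306 and 3508 CPM in WT replicates 1 and 2.

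The alternative subunits for the same seat in the core are the pairs on which several results below turn, and the RefSeq promoter sequence just before the start site is shown for Psma7 and for the pairs of Psmb5 with Psmb8 and Psmb6 with Psmb9, to set constitutive and inducible promoters side by side. The capitals mark the core of the antioxidant response element, TGACNNNGC, through which the factor Nfe2l1 is known to raise proteasome genes. The stretches cover 100 bases ending just before the start and are read 5′ to 3′ on the gene's strand in GRCm38.p6. They lie at chr2:180042465-180042564 (minus strand) for Psma7, chr14:54617996-54618095 (minus) for Psmb5, chr17:34198095-34198194 (plus) for Psmb8, chr11:70525257-70525356 (plus) for Psmb6 and chr17:34187331-34187430 (minus) for Psmb9.
Psma7: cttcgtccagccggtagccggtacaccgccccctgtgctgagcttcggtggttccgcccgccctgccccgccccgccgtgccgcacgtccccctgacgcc
Psmb5: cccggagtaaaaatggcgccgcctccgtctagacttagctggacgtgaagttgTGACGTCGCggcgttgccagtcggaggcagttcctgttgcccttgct
Psmb8: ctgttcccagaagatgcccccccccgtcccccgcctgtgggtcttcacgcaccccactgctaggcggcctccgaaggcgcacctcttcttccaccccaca
Psmb6: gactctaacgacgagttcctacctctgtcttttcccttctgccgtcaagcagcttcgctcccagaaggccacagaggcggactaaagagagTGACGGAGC
Psmb9: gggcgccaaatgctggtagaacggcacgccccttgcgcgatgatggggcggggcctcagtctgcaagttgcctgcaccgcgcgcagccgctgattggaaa
Of these 5 stretches, the motif stood in those of the constitutive subunits Psmb5 and Psmb6, and not in those of Psma7, Psmb8 and Psmb9. No promoter sequence was available for Psma8, so Psma7 is shown without its counterpart. The pair of Psmb7 with Psmb10 is not shown, and neither gene was among those with a match. The stretches shown therefore cannot set constitutive apart from inducible promoters. In windows of 300 bases, 250 before and 50 after the start, the motif was present on either strand in 5 of the 34 windows of 32 subunit genes (Psmb5, Psmb6, Psmc6, Psmd9 and Psmd12). This was a share of 14.7%, against 12.4% of all 32851 windows of that length. Only 32 of the 39 subunit genes had such a window, so a gene without a match may lack one. The cAMP response element TGACGTCA, which the spermatid factor Crem binds, was in none of the 34 subunit windows and in 1.79% of all windows. A match describes letters and not a bound site.

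No proteasome subunit passed the test between genotypes, and the testis subunit Psma8 had the smallest p. Of the 40 rows, 38 passed the filter on low counts, and edgeR called 0 of them higher and 0 lower at an adjusted p under 0.05, where 0.454% of all 15636 tested genes were called in each direction. Called in either direction were 0.908% of all genes. Without adjustment, 4 members had a higher and 4 a lower level at p under 0.05, with backgrounds of 11.8% and 12.8%, or 24.6% in either direction. DESeq2 called 0 higher and 1 lower, Psma8, where it called 2.45% of all genes higher, 4.02% lower and 6.47% in either direction, and limma-voom called 0 of the rows in either direction, where it called 0.454%, 0.441% and 0.895% of all genes. The sign was negative for 22 of the 38 and for 49.2% of all genes. Without WT replicate 1 the test called 6 lower (Psma8, Psma2, Psmb1, Psmb3, Psmd1 and Psmd14), without WT replicate 2 it called 1 lower, Psma8, and without either KO library 0. In such a fit the lone library is assumed to vary like the 2 of the other genotype, and leaving out WT replicate 1 gave 3408 calls over all genes in place of 142.

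**Figure D1:**
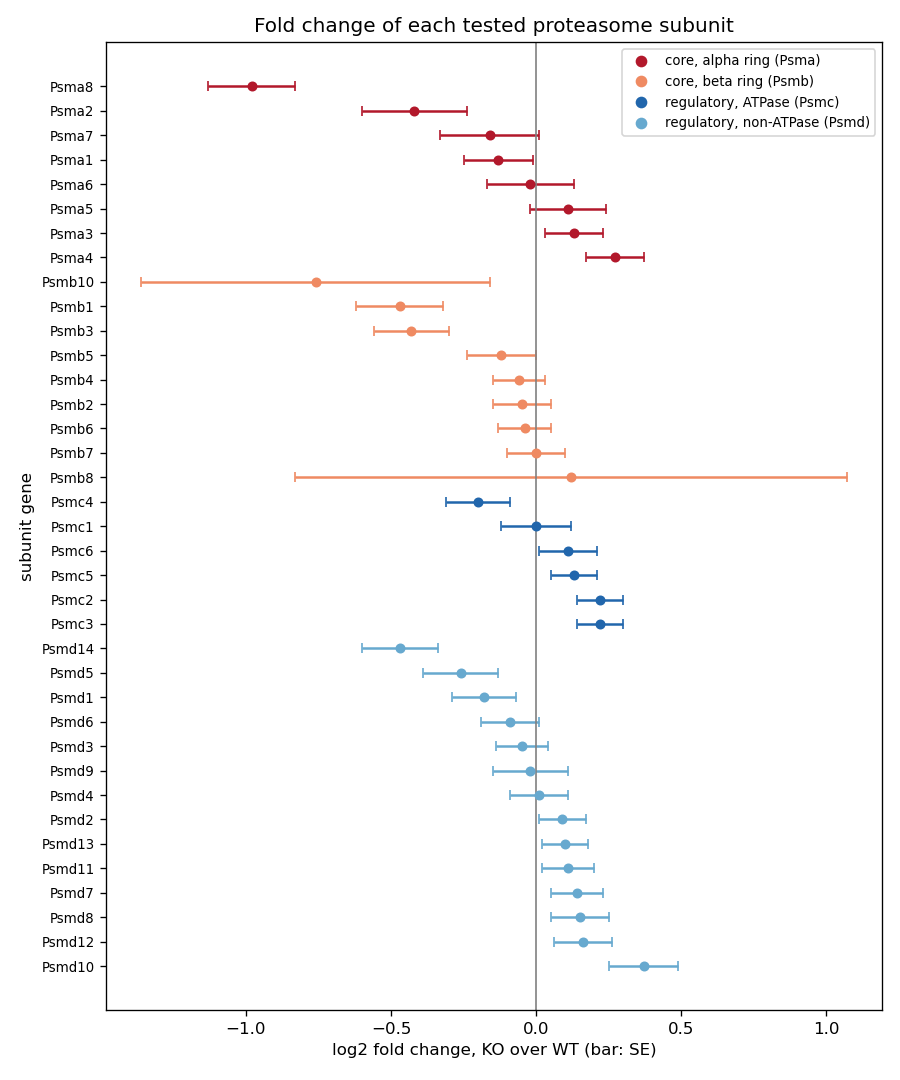
Log2 fold change of KO over WT for 37 tested subunit genes, coloured by their place in the particle, with bars of 1 SE. Psma8 lies farthest below 0 at -0.98, most others lie within 0.5 of 0, and Psmb8 and Psmb10 have the widest bars.

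Psma8, the alpha subunit made in spermatocytes and spermatids, was at about 36 CPM in both KO libraries and higher in both WT libraries. Its counts were 1232 and 1387 in KO replicates 1 and 2, and 1560 and 3075 in WT replicates 1 and 2. Levels were 35.9 and 35.4 CPM in the KO libraries, against 59.9 and 80.4 CPM in the WT libraries. The KO libraries lay close together and below both WT libraries, which stood apart from each other. Psma8 averaged 35.7 ± 0.38 CPM in KO and 70.2 ± 14.5 CPM in WT (SD, n = 2 each), giving -0.98 ± 0.15 (SE) as the log2 fold change at an edgeR adjusted p of 0.0658. Its p ranked 186 among all tested genes. With other settings the adjusted p was 9.82e-06 (DESeq2), 0.0664 (limma-voom), 0.0157 without a filter on low counts, 1.45e-05 without WT replicate 1 and 0.00291 without WT replicate 2, at log2 fold changes of -1.23 and -0.76 in the fits without a WT library. It was 0.24 without KO replicate 1, 0.369 without KO replicate 2 and 0.195 with the replicate number as a block (edgeR). Psma8 lies on chromosome 18 from 14706151 to 14762301 (GRCm38, GENCODE M21), 35.5 Mb from Fam170a on the same chromosome. Of 398 tested genes there, edgeR called 5 higher and 2 lower, beside 0.454% of all tested genes in each direction. The knocked-out Fam170a is itself among the lower ones.

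Psma7, which occupies the same seat in other cells, was low in every library. It had 149 and 166 counts (4.35 and 4.24 CPM) in the KO libraries, against 124 and 184 counts (4.76 and 4.81 CPM) in the WT libraries. Both KO values were below both WT values by a small margin, and the log2 fold change came to -0.16 ± 0.17 (SE), with an edgeR adjusted p of 0.597.

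Set against each other within a library, which needs no scaling between libraries, Psma8 exceeded Psma7 in all 4 libraries. Per kb of annotated exon, the Psma8 level was 10.2 and 10.3 times that of Psma7 in the KO libraries, against 15.5 and 20.6 times in the WT libraries. As a share of the pair's counts, Psma8 took 89.2% (95% Wilson interval 87.5% to 90.7%) and 89.3% (87.7% to 90.8%) in the KO libraries, against 92.6% (91.3% to 93.8%) and 94.4% (93.5% to 95.1%) in the WT libraries. These intervals cover counting error only, and those of the KO libraries do not reach those of the WT libraries. The log2 ratio of counts averaged 3.05 ± 0.01 in KO and 3.85 ± 0.29 in WT (SD, n = 2 each), a difference of -0.80, and an exact two-sided permutation test over the 4 libraries gave p = 0.333, the smallest that this design allows. The value without 1 library lay between -1.01 and -0.60. With the length of the longest transcript in place of all exons, the ratio over all 4 libraries averaged 9.07 in place of 14.2.

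**Figure D2:**
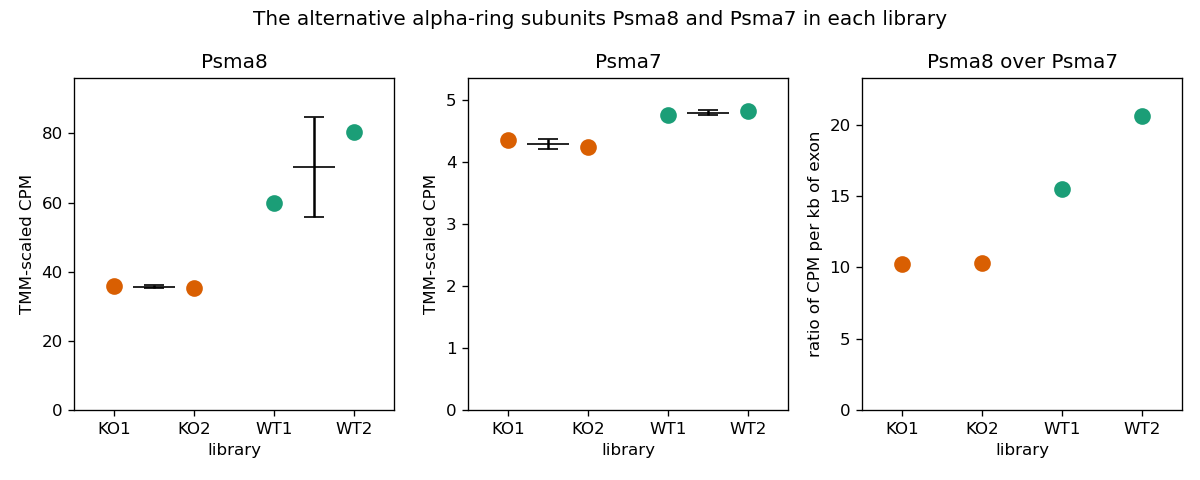
TMM-scaled CPM of Psma8 and Psma7 and the ratio of their CPM per kb of exon in each library, with KO libraries left of WT libraries; black bars in the first 2 panels are the mean ± SD of 2 libraries. Psma8 is at 35.9 and 35.4 CPM in KO and at 59.9 and 80.4 CPM in WT, and the ratio is 10.2 and 10.3 in KO and 15.5 and 20.6 in WT.

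Several markers of meiotic cells, and of some other cell types, stood in the same order as Psma8. Of 7 spermatocyte markers, 0 were higher and 1 was lower by edgeR, which called 0.454% of all tested genes in each direction. Both KO libraries lay below both WT libraries for 5 of the 7, as for 27.9% of all tested genes. DESeq2 called 4 of the 7 lower (Piwil1, Hormad1, Sycp3 and Sycp1), against 4.02% of all genes. The synaptonemal complex gene Sycp1 was at 155 and 146 CPM in the KO libraries, against 184 and 268 CPM in the WT libraries, and Hormad1, an axis protein of meiotic chromosomes, at 48.4 and 39.4 CPM in KO, against 62.3 and 95.1 CPM in WT. Piwil1, which binds piRNAs, was the marker that passed, with a KO-over-WT value of -1.61 in log2 (edgeR adjusted p = 0.00713). The abundant late markers Pgk2 and Ldhc differed by 0.16 and 0.11 in log2, and the summed level of the list was 3620.2 and 3861 CPM in KO and 3847 and 3720.5 CPM in WT. The 6 round spermatid markers summed to 1646 and 1673 CPM in KO and to 1457 and 1359.6 CPM in WT. All 6 had both KO libraries above both WT libraries, as had 29.4% of all tested genes, and edgeR called 0 of them. The 7 spermatogonial markers summed to 66.9 and 63.8 CPM in KO and to 70.2 and 90.7 CPM in WT. As among the spermatocyte markers, 5 of these 7 had both KO libraries below both WT libraries, and 1 had them above. Markers of other testis cells were low: Sertoli cell genes summed to 4.61 and 5.44 CPM in KO and 11.4 and 6.04 CPM in WT, Leydig cell genes to 6.33 and 5.10 CPM in KO and 14.6 and 8.66 CPM in WT, and peritubular and vascular genes to 22.6 and 25.4 CPM in KO and 30.4 and 34.6 CPM in WT. Both KO libraries lay below both WT libraries for 3 of 5 tested Sertoli cell markers and 3 of 5 Leydig cell markers. The same held for 2 of 5 peritubular and vascular markers, with 0 in the reverse order in each list. DESeq2 called 1 spermatogonial and 1 Leydig cell marker lower, against 4.02% of all genes. The order of Psma8 was thus not particular to meiotic markers. No marker was at 0 in all libraries. The part of these shifts in the Psma8 values was not tested.

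Among the other alpha subunits, which form the outer rings and the gate of the core, differences were smaller and in both directions. The 8 alpha genes had log2 fold changes between -0.98 and 0.27 around a median of -0.08, with 3 positive and 5 negative. KO libraries lay above WT libraries for 2 of them (Psma3 and Psma4), below for 4 (Psma1, Psma2, Psma7 and Psma8) and overlapped for Psma5 and Psma6, beside 29.4% above and 27.9% below over all tested genes. Psma2 was at 11.1 and 10.5 CPM in the KO libraries, against 12.1 and 16.7 CPM in the WT libraries, and as for Psma8 the higher value was that of WT replicate 2. Psma6, the most abundant alpha gene, was at 198 and 241 CPM in KO and at 249 and 197 CPM in WT, so the spread within each genotype exceeded the difference between them.

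The beta subunits included 2 genes that ranked next after Psma8 in the core. The 9 tested beta genes had a median log2 fold change of -0.06, with 1 positive and 8 negative, and KO libraries lay below WT libraries for 4 of them (27.9% of all tested genes) and above for none (29.4%). Psmb3, a non-catalytic member of the inner ring, was at 9.16 and 10.1 CPM in the KO libraries, against 12.6 and 13.4 CPM in the WT libraries. Its groups did not overlap, and its log2 fold change came to -0.43 ± 0.13 (SE), with an edgeR adjusted p of 0.134. Psmb1, also non-catalytic, was at 19.5 and 18.5 CPM in KO, against 22.7 and 29.8 CPM in WT. Its KO values were again the lower ones, with a wide gap between the WT libraries, and its log2 fold change came to -0.47 ± 0.15 (SE), with an edgeR adjusted p of 0.153.

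None of the constitutive catalytic subunits passed the test. Psmb5, which cleaves after hydrophobic residues, was at 19.9 and 22.7 CPM in the KO libraries, against 23.3 and 23.1 CPM in the WT libraries, giving -0.12 ± 0.12 (SE) as the log2 fold change at an edgeR adjusted p of 0.548. Psmb6, which cleaves after acidic residues, was at 68.1 and 71.5 CPM in KO, against 73.9 and 69.6 CPM in WT, giving -0.04 ± 0.09 (SE) as the log2 fold change at an edgeR adjusted p of 0.821. Psmb7, which cleaves after basic residues, was at 58.4 and 65.3 CPM in KO, against 61.2 and 62.6 CPM in WT, giving -0.00 ± 0.10 (SE) as the log2 fold change at an edgeR adjusted p of 0.998. The groups of Psmb6 and Psmb7 overlapped, and for Psmb5 both KO values were below both WT values, KO replicate 2 by a small margin.

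The immunoproteasome genes were near the limit of detection in every library. Psmb8, the counterpart of Psmb5, had 11 and 6 counts in the KO libraries, against 11 and 2 in the WT libraries. Psmb9, the counterpart of Psmb6, had 1 and 2 counts in KO, against 4 and 9 in WT, and did not pass the filter. Psmb10, the counterpart of Psmb7, had 9 and 23 counts in KO, against 11 and 38 in WT. Summed per genotype, the rate of Psmb9 in KO was 0.202 of that in WT, with an exact 95% interval of 0.0369 to 0.735. The same ratio was 1.14 (0.523 to 2.56) for Psmb8 and 0.571 (0.354 to 0.91) for Psmb10. These intervals cover counting error only. The log2 fold change was 0.12 ± 0.95 for Psmb8 and -0.76 ± 0.60 for Psmb10 (SE; edgeR adjusted p = 0.955 and 0.472). Without WT replicate 2 these values were -0.85 for Psmb8 and 0.01 for Psmb10, so neither direction held. Psmb11, the thymus subunit, had 1 and 0 counts in KO and 0 and 3 counts in WT and also did not pass the filter.

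As a share of the pair's counts, Psmb8 made up 1.59% (95% Wilson interval 0.887% to 2.82%) and 0.671% (0.308% to 1.46%) beside Psmb5 in the KO libraries, against 1.78% (0.997% to 3.16%) and 0.226% (0.062% to 0.82%) in the WT libraries. Psmb9 made up 0.0428% (0.00755% to 0.242%) and 0.0713% (0.0196% to 0.26%) beside Psmb6 in KO, against 0.207% (0.0807% to 0.532%) and 0.337% (0.177% to 0.639%) in WT. Psmb10 made up 0.447% (0.236% to 0.848%) and 0.891% (0.595% to 1.33%) beside Psmb7 in KO, against 0.686% (0.383% to 1.22%) and 1.56% (1.14% to 2.14%) in WT. The share of Psmb9 was lower in both KO libraries than in both WT libraries, but every KO interval overlapped every WT interval, and an exact two-sided permutation test of the log2 ratio gave p = 0.333, the smallest that this design allows. Psmb9 shares exon bases with Tap1 and Psmb8 with Gm20496, both on the opposite strand, and whether counting used strand is not given. Genes that mark leukocytes, which carry the immunoproteasome, summed over 9 genes to 35.1 and 19.4 CPM in KO and to 26.4 and 6.98 CPM in WT, and their part in these counts was not tested.

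Among the regulatory ATPases, which form the ring that unfolds substrates, the most abundant genes Psmc3 and Psmc2 lay higher in both KO libraries without passing the test. Of 6 ATPase genes, 4 had both KO libraries above both WT libraries and 1 (Psmc4) had them below, beside 29.4% and 27.9% of all tested genes, around a median log2 fold change of 0.12. Psmc3 was at 801 and 849 CPM in the KO libraries, against 714 and 708 CPM in the WT libraries. Both KO values exceeded both WT values by more than the gap within either genotype, and the log2 fold change came to 0.22 ± 0.08 (SE), with an edgeR adjusted p of 0.167. Psmc2 was at 425 and 436 CPM in KO, against 383 and 355 CPM in WT. The order was the same as for Psmc3, giving 0.22 ± 0.08 (SE) as the log2 fold change at an edgeR adjusted p of 0.171. Psmc3 overlaps Slc39a13 in exons on the opposite strand. In all, 12 of the 40 rows share exon bases with another annotated gene.

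The non-ATPase genes ran in both directions, with 8 positive and 6 negative around a median of 0.05. Psmd14, the deubiquitinase that strips ubiquitin chains from substrates at the entry to the core, was at 15.5 and 12.8 CPM in the KO libraries, against 19.4 and 19.6 CPM in the WT libraries. The KO values were both lower, by more than the gap between them, and the log2 fold change came to -0.47 ± 0.13 (SE), with an edgeR adjusted p of 0.128. Psmd10, known as gankyrin, a chaperone of the assembly of the ATPase ring, was at 15.4 and 16.8 CPM in KO, against 12.8 and 12.2 CPM in WT. It had the highest fold change of all tested members at 0.37 ± 0.12 (SE; edgeR adjusted p = 0.153). The other chaperones of this step, Psmd5 and Psmd9, had log2 fold changes of -0.26 and -0.02. Psmd1, a scaffold of the base, was at 81.2 and 78.2 CPM in KO, against 82.8 and 98.2 CPM in WT, and WT replicate 2 stood above the other libraries. Psmd2, the other base scaffold, was at 463 and 482 CPM in KO and at 434 and 454 CPM in WT, and the ubiquitin receptor Psmd4 at 96.2 and 98.1 CPM in KO and at 103 and 89.8 CPM in WT. The row of Gm21972 had 18 and 29 counts in KO and 22 and 45 in WT.

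By class, core genes lay more often below and regulatory genes more often above the WT libraries. KO libraries lay below WT libraries for 8 of 17 tested core genes and above for 2, and below for 4 of 20 regulatory genes and above for 11. Over all tested genes the shares were 27.9% below and 29.4% above, 57.3% together. The median log2 fold change was -0.06 for the core and 0.09 for the regulatory genes, beside 0.01 over all tested genes. With scaling by total counts, which moved the median of all genes to -0.10, these medians were -0.17 and -0.02, so the sign for the regulatory genes depends on the scaling. No test was made of the classes, since their members were chosen with results known.

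Summed transcripts followed the same order. The core genes summed to 652 and 702 CPM in the KO libraries, against 722 and 718 CPM in the WT libraries. The regulatory genes summed to 2875 and 2978 CPM in KO, against 2687 and 2663 CPM in WT. Within a library the regulatory sum was 4.41 and 4.24 times the core sum in KO, against 3.72 and 3.71 times in WT, a ratio that no scaling between libraries can change. Per kb of exon the ratio was 2.47 and 2.32 in KO, against 2.02 and 2.13 in WT. Psmc3 alone held 27.9% and 28.5% of the regulatory sum in KO and 26.6% in each WT library. Without Psmc3, Psmc2 and Psma8, left out after their values were seen, the ratio of CPM sums was 2.68 and 2.54 in KO, against 2.40 and 2.51 in WT, so the KO values were still the higher ones with a smaller gap. Per kb without these genes it was 1.47 and 1.36 in KO, against 1.27 and 1.38 in WT, and the genotypes overlapped.

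**Figure D3:**
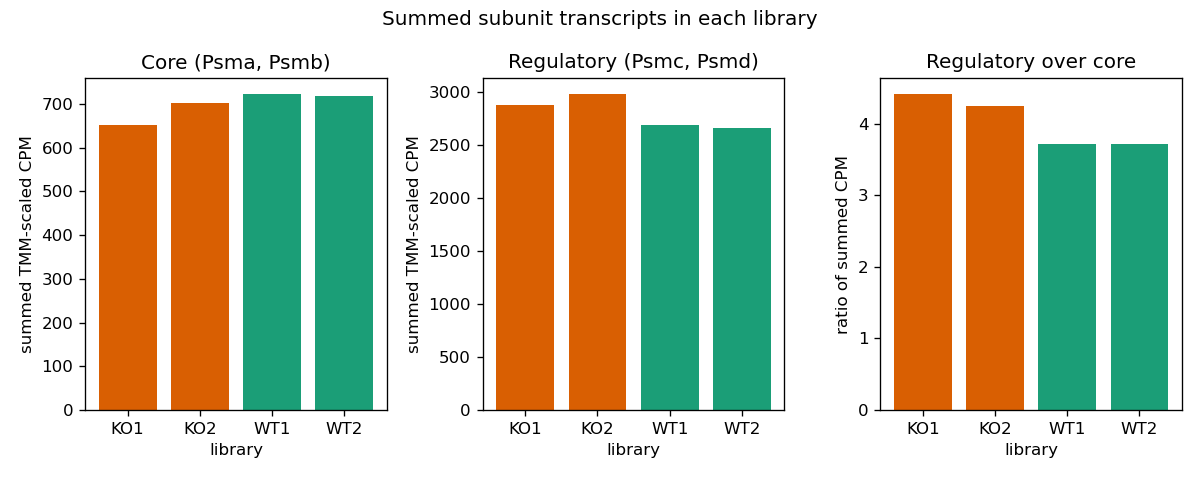
Summed TMM-scaled CPM of 19 core genes and of 20 regulatory genes, and the ratio of the regulatory to the core sum, as 1 bar per library with KO left of WT. The ratio is 4.41 and 4.24 in KO and 3.72 and 3.71 in WT.

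Subunits that share a particle had very unequal transcript levels. Per kb of exon, the level averaged over 4 libraries was highest for Psmc3 at 294 ± 26.6 CPM per kb, followed by Psma6 at 179 ± 22.4, Psmd2 at 113 ± 5.06 and Psmd8 at 110.2 ± 9.19 CPM per kb (SD, n = 4). Among the alpha genes the range ran down to Psma7 at 1.48 ± 0.0942 CPM per kb. Psma8 was at 14.3 ± 0.152 CPM per kb in KO, below Psma6, Psma4 and Psma5, and at 28.1 ± 5.82 CPM per kb in WT, where Psma6 alone had a higher mean among the alpha genes (SD, n = 2 each). In WT its values of 24.0 and 32.2 overlapped those of Psma4, at 21.7 and 24.8 CPM per kb. These ranks depend on the length used. Per kb of the longest transcript, Psma4 was above Psma8 in WT, at 47.3 against 36.6 CPM per kb. On that length Psma8 was also below Psma3 in KO, at 18.6 against 18.9 CPM per kb. Psmc4 and Psmc6, at 10.5 ± 0.938 and 9.97 ± 0.534 CPM per kb, were the lowest ATPase genes. The median over genes was 14.1 CPM per kb in KO and 14.9 in WT for the alpha genes, and 4.18 in KO and 5.71 in WT for the beta genes. The 11 beta genes include Psmb8, Psmb9, Psmb10 and Psmb11, all near the limit of detection, which lower these medians. The middle beta gene was Psmb3 in KO and Psmb1 in WT, so the beta medians do not follow 1 gene between genotypes. Psmb2, Psmb4, Psmb5, Psmb6 and Psmb7 were at 18.1 to 37.8 CPM per kb, and Psmb1 and Psmb3 at 4.93 and 4.91. Of the 38 pairs of neighbours in the order of levels per kb, 27 had overlapping ranges over the 4 libraries, Psmd2 and Psmd8 among them. The order between such neighbours is therefore not resolved. With the longest transcript as the length, Psmc3 and Psma6 were again the highest, and Psmb9 and Psmb11 the lowest.

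**Figure D4:**
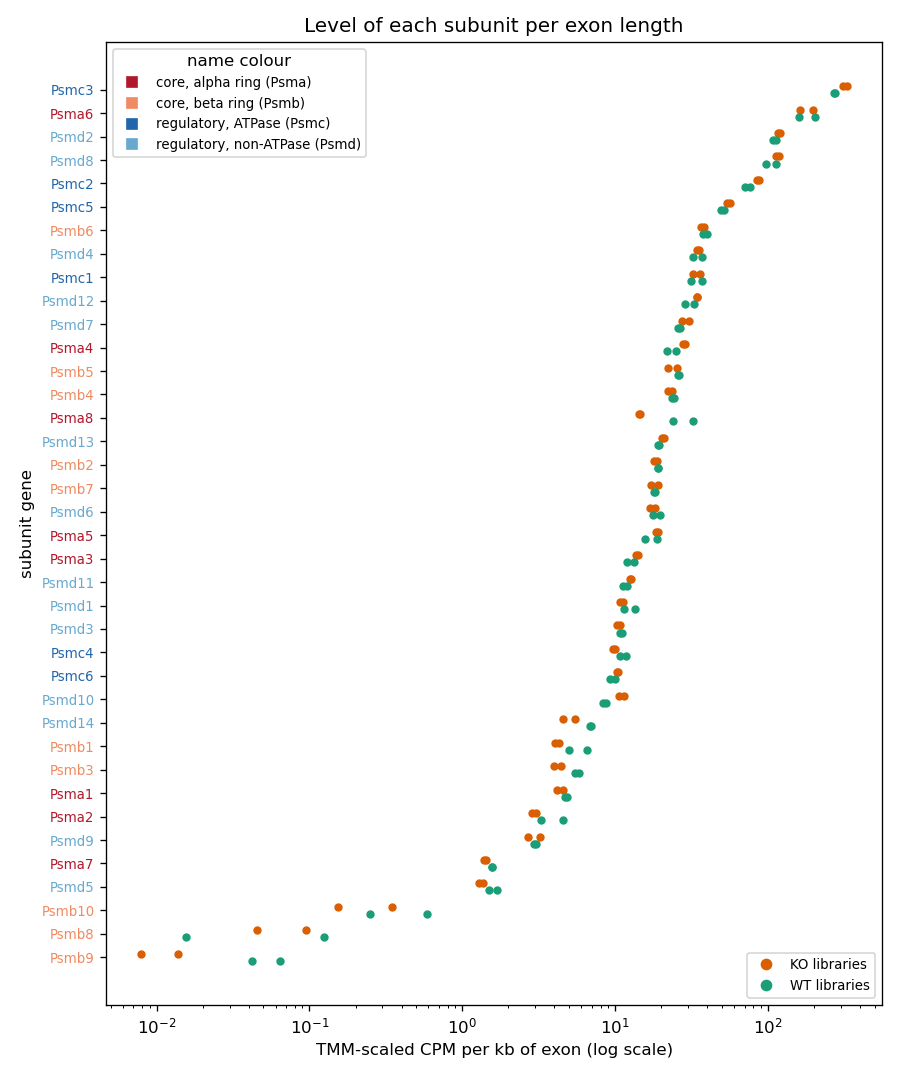
TMM-scaled CPM per kb of exon on a log axis for 38 subunit genes in order of their mean, with KO libraries drawn above WT libraries in each row and names coloured by place in the particle. Psmb11 is left out because it had 0 counts in a library of each genotype; Psmc3 is at the top at a mean of 294 and Psmb9 at the bottom.

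For most subunits the difference between genotypes did not exceed both of the differences between libraries of a genotype. Over 37 tested genes the median size of the difference was 0.14 between genotype means, 0.07 between the KO libraries and 0.11 between the WT libraries, on the scale of log2(CPM + 0.1). The corresponding medians over all tested genes were 0.24, 0.14 and 0.21. The genotype difference exceeded both replicate differences for 15 of 37 subunits (40.5%) and for 45.3% of all tested genes. WT replicate 2 was above WT replicate 1 for 25 of the 37, by 0.47 for Psma2, 0.39 for Psmb1 and 0.42 for Psma8.

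**Figure D5:**
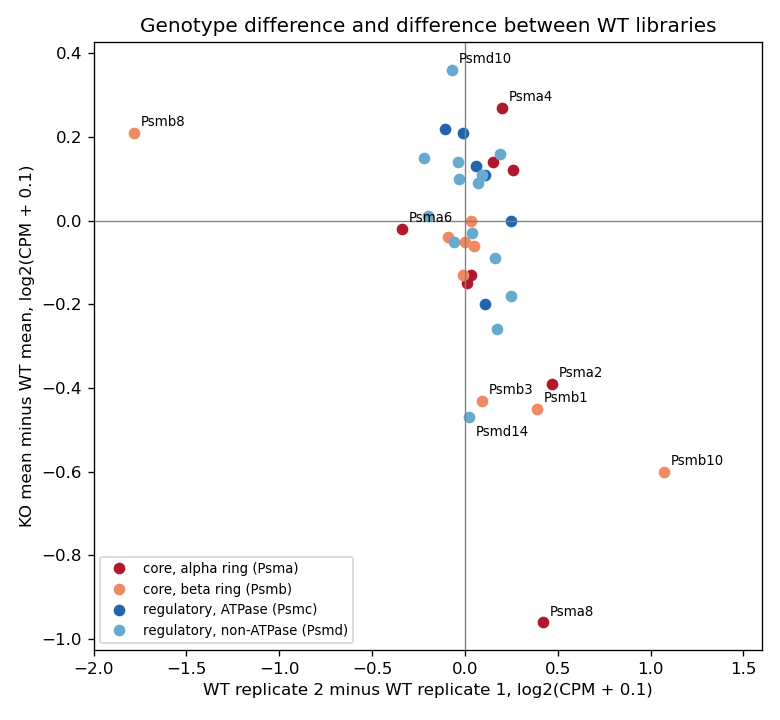
Difference between KO and WT means against that between WT replicates 2 and 1, both in log2(CPM + 0.1), as 1 point per tested subunit. Psma8 lies at -0.96 on the vertical and 0.42 on the horizontal axis, Psma2 and Psmb1 have gaps between the WT libraries of about the size of their genotype difference, and Psmd14 and Psmb3 have smaller ones.

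Of 46 tested genes that work with the proteasome, in 6 lists, edgeR and limma-voom called 0 higher and 0 lower. The shares over all tested genes were 0.454% in each direction for edgeR, and 0.454% higher and 0.441% lower for limma-voom. Before adjustment, 1 was higher and 10 were lower at p under 0.05, with backgrounds of 11.8% and 12.8%. DESeq2 called Ubqln4 higher and Psmg4 and Rps27a lower, where it called 2.45% and 4.02% of all genes. Among 5 activators and inhibitors the median log2 fold change was -0.13. Psme4, the activator associated with the spermatoproteasome, was at 1394 and 1509 CPM in KO, against 1305 and 1299 CPM in WT (log2 fold change 0.16, edgeR adjusted p = 0.277). Psme1 and Psme2, partners of the immunoproteasome, had log2 fold changes of -0.73 and -0.67 (edgeR adjusted p = 0.157 and 0.233), at 2.01 and 2.07 CPM for Psme1 in KO, against 2.84 and 3.87 CPM in WT. Psme2 was at 1.49 and 1.33 CPM in KO, against 1.77 and 2.67 CPM in WT. Psme2b, a copy of Psme2 outside the lists and singled out after its values were seen, had 0 counts in both KO libraries, against 18 and 16 in the WT libraries. Its rate was at least 13.0-fold lower in KO with the KO pair set at a floor of 3 counts together, with an adjusted p of 0.0814 in edgeR and 0.0385 in limma-voom.

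Of 6 assembly chaperones, 5 were analysed here, with a median of -0.45, KO libraries below WT libraries for 4 and above for Psmg2, beside 27.9% and 29.4% of all tested genes. Psmg4 was at 0.817 and 0.919 CPM in KO, against 2.50 and 2.22 CPM in WT, a log2 fold change of -1.43 ± 0.27 (SE; edgeR adjusted p = 0.0834, DESeq2 adjusted p = 0.0198). Psmg1 and Psmg2, which pair with each other, had log2 fold changes of -0.42 and 0.26 (edgeR adjusted p = 0.167 and 0.206). Psmg1 was at 7.38 and 6.97 CPM in KO, against 8.87 and 10.3 CPM in WT, and Psmg2 averaged 25.2 ± 1.12 CPM in KO and 21.1 ± 0.185 CPM in WT (SD, n = 2 each), from 891 and 956 counts in KO and 553 and 802 counts in WT. Medians of the remaining lists were -0.06 for 10 base-bound and interacting factors, 0.04 for 12 ubiquitin shuttles and unfoldase genes, -0.15 for 8 regulators and ubiquitin genes and -0.49 for 8 tested antigen processing partners. Ubqln4, a shuttle for ubiquitinated proteins, was at 45.3 and 42.3 CPM in KO, against 31.4 and 31.6 CPM in WT (log2 fold change 0.47, edgeR adjusted p = 0.0892, DESeq2 adjusted p = 0.0215). Rps27a, which encodes ubiquitin fused to a ribosomal protein, was at 24.3 and 27.0 CPM in KO, against 32.9 and 37.4 CPM in WT (log2 fold change -0.45, edgeR adjusted p = 0.115, DESeq2 adjusted p = 0.0473). Nfe2l1, the transcription factor of the promoter motif above, was at 32.2 and 30.2 CPM in KO, against 37.7 and 40.4 CPM in WT (log2 fold change -0.32, edgeR adjusted p = 0.141). Irf1, an interferon-responsive factor for immunoproteasome genes, was at 3.15 and 2.30 CPM in KO, against 4.26 and 6.25 CPM in WT (log2 fold change -0.96, edgeR adjusted p = 0.127).

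The other genes of these lists with the smallest p had no adjusted p under 0.05 in edgeR. Ecpas, an adaptor that binds the proteasome, was at 66.9 and 67.9 CPM in KO, against 76.3 and 87.3 CPM in WT (edgeR adjusted p = 0.169). Ddi2, the protease that activates Nfe2l1, was at 19.1 and 17.0 CPM in KO, against 22.5 and 28.0 CPM in WT (edgeR adjusted p = 0.135). Ubqln2, another shuttle, was at 1.37 and 1.33 CPM in KO, against 2.34 and 1.99 CPM in WT (edgeR adjusted p = 0.179). These 3 genes had both KO values below both WT values. Sel1l, an adaptor of degradation at the endoplasmic reticulum, was at 38.8 and 33.4 CPM in KO, against 43.4 and 51.7 CPM in WT (edgeR adjusted p = 0.154). Fbxo7 was at 20.1 and 20.5 CPM in KO, against 23.5 and 24.7 CPM in WT, and Zfand5 at 18.2 and 15.4 CPM in KO, against 19.2 and 23.3 CPM in WT. Their edgeR adjusted p were 0.212 and 0.232, with KO libraries below WT libraries in both. For 11 of the named genes, Psme1, Psme2, Psmg4, Psmg1, Ecpas, Zfand5, Ddi2, Rps27a, Nfe2l1, Sel1l and Irf1, the fit without WT replicate 1 gave an adjusted p under 0.05 with a lower level in KO, and for Ubqln4 it did so with a higher level. In that fit 1374 genes were called higher and 2034 lower of 16105. Psmg4 (adjusted p = 0.0415) and Ubqln4 (adjusted p = 0.0457) also passed without WT replicate 2, and neither passed without either KO library (edgeR).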

How the data were processed

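Testis RNA from 2 KO and 2 WT libraries was analysed from a table of raw counts per gene deposited by the authors, in which all values are whole numbers. The submitters' processing notes name the aligners HISAT2 2.1.0 and Bowtie2 2.2.8, the read filter fastp 0.18.0, and RSEM and StringTie 1.3.1. The genome build, annotation and use of strand: not given in the sources used here. Of the gene IDs, 22219 matched GENCODE M21 (GRCm38), which supplied positions and exon lengths, and 55 did not; promoters are from RefSeq.

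Genes were kept with filterByExpr (minimum count 10, minimum total 15), which left 15636 and set 6638 aside. Counts were scaled with TMM and tested with the quasi-likelihood test of edgeR 4.0.16 on genotype alone, in R 4.3.3, with Benjamini-Hochberg adjustment over all tested genes at 0.05. DESeq2 1.42.0 and limma-voom (limma 3.58.1), other scalings, filters and a stricter threshold of 0.01, a replicate block and leaving out each library were alternatives. Ratios of counts had 0.5 added before the log.

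Per-library values are given for Psma8, Psma7, the catalytic pairs and Psmb11, any subunit past the threshold, the 6 others with the smallest p, and up to 3 genes of each related list, of which a gene is not reported here; further genes were chosen after their values were seen. The members and lists were chosen with earlier results of these data known.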

Additional observations from a re-analysis of the deposited data

How the results depend on the processing

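No alternative called a subunit higher. The number called lower was 0 with edgeR as reported, 1 (Psma8) without a filter, 1 with DESeq2, and 0 to 6 when each library was left out in turn. With the replicate number as a block, 0 subunits were called in either direction and 9 genes in all, in place of 142. Over genes, the deviations of same-numbered libraries from their genotype means had a correlation of -0.243. With 2 libraries per genotype this is a single comparison, in which other differences between libraries could hide a shared batch. It cannot tell whether the numbers pair the libraries. A crossed pairing, added after seeing the data, called 1 subunit lower and 902 genes in all. Over all genes, 1011 were called with DESeq2, 451 without a filter, 82 with total counts, and 3408, 872, 24 and 21 without WT replicate 1, WT replicate 2, KO replicate 1 and KO replicate 2. The core median of -0.06 was -0.08 with DESeq2 size factors or DESeq2, -0.17 with total counts, -0.12 without a filter, -0.09 with symbols in mouse letter case alone, and -0.14 to -0.08 without a library. The regulatory median of 0.09 was -0.02 with total counts and 0.00 to 0.09 without a library. The difference of -0.80 in log2(Psma8/Psma7) was -1.01 to -0.60 without a library and -0.80 with the block, and the level of Psma8 over Psma7 was 9.07 with the longest transcript. Of 358 values for 30 named genes, 326 kept direction and side of the threshold, 25 kept direction and passed it, and 7 changed sign. Those that changed sign were Psmb7, at 0.00 with upper quartile factors and without a filter and at -0.08 to 0.08 without a library, Psmb8 (-0.85 to 2.04) and Psmb10 (-1.45 to 0.01). The cause was not tested. Depth limits the immunoproteasome genes, with at most 38 counts in a library.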
